A study of Mus musculus with 9 samples.

Results

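The response of the endoplasmic reticulum (ER) to unfolded protein was followed through 10 genes in embryoid bodies (EBs) of the mouse, clusters in which cultured embryonic stem cells start to differentiate. The genes were *Hspa5*, *Hsp90b1*, *Calr*, *Pdia4*, *Sdf2l1*, *Dnajb9*, *Xbp1*, *Atf6*, *Herpud1* and *Edem1*. They were given as a list of symbols, and each was found under 1 Ensembl ID among the 55471 gene IDs of the count table. The EBs came from the mouse embryonic stem cell line E14 and were all collected after 3 days of in vitro differentiation. WT EBs carried no edit. KO EBs were *Tnfaip2*-/-, from 1 clone in which CRISPR editing had left a frameshift and an early stop in exon 2. KO_PAPC EBs had the same knockout and were cultured with 8 μM palmitic acid (PA) and 8 μM palmitoyl-L-carnitine (PC), together PA/PC. Per the study's methods, PA/PC was present while the EBs formed, for 3 days, and again during the 3 days of differentiation. The general protocol names embryonic stem cell medium for the days of EB formation, whereas the PA/PC protocol names fibroblast medium. If untreated KO EBs formed in the former, an effect of PA/PC cannot be told apart from that of the medium. Each group had 3 libraries, which the study describes as biological replicates, and for KO and KO_PAPC as independent pools of EBs. WT EBs with PA/PC were not analysed here, so PA/PC could be compared only within the knockout, and the knockout effect cannot be told apart from the effect of that 1 clone. Per the study's methods the untreated KO EBs received the vehicle. The comparisons asked whether loss of *Tnfaip2* and the addition of a saturated fatty acid with its carnitine ester were accompanied by a change in ER stress transcripts.

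Proteins that enter the secretory pathway fold in the ER with the help of chaperones and disulfide-forming enzymes. When unfolded protein accumulates, 3 sensors in the ER membrane, IRE1, PERK and ATF6, start the unfolded protein response. IRE1 splices *Xbp1* mRNA so that it encodes an active transcription factor, and ATF6 is cut by proteases of the Golgi to release its own factor, and both raise chaperone and degradation genes. PERK slows translation while favouring that of ATF4, which raises *Ddit3* (CHOP) and *Trib3*. Saturated fatty acids such as palmitate are known to activate these sensors in several cell types. The counts are per gene and hold no isoforms, so the splicing of *Xbp1* was not seen, nor were protein levels or the cleavage of ATF6. In bulk EBs, fewer cells of a type and less RNA per cell cannot be told apart.

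The libraries held 27362913 to 28914312 counts. Values are given as normalised CPM, counts scaled to a common library size (CPM) after correction by TMM factors, which lay between 0.921 and 0.926 in KO_PAPC libraries and between 1.039 and 1.043 in the others. *Tnfaip2* itself gave 16, 6 and 10 counts in WT EBs, 5, 6 and 8 in KO EBs and 25, 14 and 16 in KO_PAPC EBs. At so low a level it gives no check of the genotype labels, and an early stop need not lower the mRNA. The share of counts from mitochondrial genes was 1.85 to 1.87% in WT, 1.96 to 1.98% in KO and 1.26 to 1.34% in KO_PAPC EBs. The labels give 1 mapping pipeline for all 9 libraries. The study's methods describe an earlier one for its comparison of KO with WT EBs, both groups together. Had only the WT columns come from the earlier one, a difference in mapping could not be told apart from the knockout. All 10 genes passed the filter on low counts in all 3 comparisons.

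The promoters of several of these genes carry the ER stress response element (ERSE), the sequence through which ATF6 and XBP1 are known to act together with the factor NF-Y. The element was searched for as CCAAT, 9 bases of any kind, then CCACG, on both strands. The windows ran from 250 bases before to 50 bases after the RefSeq start site, on build GRCm38.p6. It was present in 39 of 32851 windows (0.119%), and in 37 of 27025 genes (0.137%). Of the 10 genes, 9 had a window (all but *Atf6*), and 3 of these 9 held the element: *Hspa5* once, *Hsp90b1* at 2 places and *Calr* once. The shorter ERSE-II (ATTGG, 1 base, CCACG) was found in 12 windows (0.0365%), that of *Herpud1* among them. The UPR element TGACGTGG was found in 222 windows (0.676%) and in none of the 9. These letters were not present in the windows of *Pdia4*, *Xbp1*, *Dnajb9*, *Sdf2l1* and *Edem1*. The 250 bases upstream of the start are printed for the 4 genes with a match, 3 with the ERSE and *Herpud1* with the ERSE-II. They read 5′ to 3′ along the gene and capitals mark the fixed letters of the element, which on the opposite strand read CGTGG and ATTGG.
*Hspa5*, chr2:34771840-34772089, + strand: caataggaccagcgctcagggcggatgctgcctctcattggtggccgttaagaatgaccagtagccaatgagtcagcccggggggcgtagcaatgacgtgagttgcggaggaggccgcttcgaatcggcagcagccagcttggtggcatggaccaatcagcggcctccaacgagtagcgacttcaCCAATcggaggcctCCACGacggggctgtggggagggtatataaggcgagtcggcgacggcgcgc
*Hsp90b1*, chr10:86705445-86705694, - strand: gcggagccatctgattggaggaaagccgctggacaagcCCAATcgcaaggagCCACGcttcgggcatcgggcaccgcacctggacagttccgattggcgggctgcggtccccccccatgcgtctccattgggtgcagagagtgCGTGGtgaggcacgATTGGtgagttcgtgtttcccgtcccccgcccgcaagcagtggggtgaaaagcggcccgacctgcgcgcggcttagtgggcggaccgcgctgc
*Calr*, chr8:84846932-84847181, - strand: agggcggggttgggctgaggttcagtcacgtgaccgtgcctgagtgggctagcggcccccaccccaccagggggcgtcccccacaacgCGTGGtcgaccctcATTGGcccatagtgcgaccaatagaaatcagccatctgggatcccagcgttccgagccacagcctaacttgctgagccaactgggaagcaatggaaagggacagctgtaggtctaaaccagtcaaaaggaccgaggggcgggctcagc
*Herpud1*, chr8:94386179-94386428, + strand: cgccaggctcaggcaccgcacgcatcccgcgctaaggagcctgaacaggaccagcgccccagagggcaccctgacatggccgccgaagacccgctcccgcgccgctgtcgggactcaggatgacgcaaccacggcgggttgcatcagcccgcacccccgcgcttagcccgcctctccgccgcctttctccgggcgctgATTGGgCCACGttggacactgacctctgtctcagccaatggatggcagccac

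The sites are aligned on the element itself, all 19 bases along the strand that carries it. They can differ only in the 9 bases between the fixed letters, since the search required those letters. *Creld2*, the chaperone gene with an element whose level fell most under PA/PC, is set beside them.
*Hspa5*, 65 bases upstream: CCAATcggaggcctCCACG
*Hsp90b1*, 212 bases upstream: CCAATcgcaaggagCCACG
*Hsp90b1*, 107 bases upstream, opposite strand: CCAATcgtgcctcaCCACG
*Calr*, 162 bases upstream, opposite strand: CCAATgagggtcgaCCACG
*Creld2*, 126 bases upstream, opposite strand: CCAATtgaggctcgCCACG

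In KO EBs the 10 genes did not move together. *Xbp1*, *Pdia4*, *Hspa5* and *Atf6* were higher than in WT EBs, *Herpud1* and *Calr* were lower, and *Hsp90b1*, *Dnajb9*, *Sdf2l1* and *Edem1* did not pass the test. With an edgeR adjusted p under 0.05, 4 of 10 rose and 2 fell, where 36.8% of the 17355 genes tested rose and 37.1% fell. Against a tested fold of 1.5, *Xbp1* alone rose (10.8% of all genes) and *Herpud1* alone fell (10.1%). The groups did not overlap for 6 of 10 genes, against 75.3% of all genes. The median log2 fold change of the 10 was 0.053, that of all genes -0.0059.

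Under PA/PC most of the 10 were lower than in untreated KO EBs. *Xbp1*, *Atf6*, *Pdia4*, *Hspa5*, *Herpud1*, *Sdf2l1* and *Edem1* fell, *Hsp90b1* and *Calr* rose by small amounts, and *Dnajb9* did not pass the test. The count of 7 lower and 2 higher stands beside 42.2% lower and 39.6% higher among 17167 genes. Past a tested fold of 1.5, *Xbp1* and *Atf6* were lower and none was higher, where all genes gave 22.3% and 15.5%. The groups did not overlap for 9 of 10 genes (82.2% of all genes). The median log2 fold change of the 10 was -0.30, against -0.017 for all genes. Scaling by library totals instead of TMM moved the median of all genes from -0.017 to -0.18, and under it 0 of the 10 rose and 9 fell.

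Set against WT EBs, KO_PAPC EBs were lower for 7 of the 10 and higher for *Hsp90b1* only, where 36.4% of 16655 genes were lower and 34.2% higher. Past the 1.5 fold, *Herpud1*, *Atf6* and *Xbp1* were lower (13.4% of all genes) and none was higher (4.31%). The groups did not overlap for 9 of 10, against 72.6% of all genes. The median was -0.20, against -0.017 for all genes. The comparisons share libraries, KO EBs serving in both of the first 2, so they are given side by side and are not independent.

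**Figure D1:**
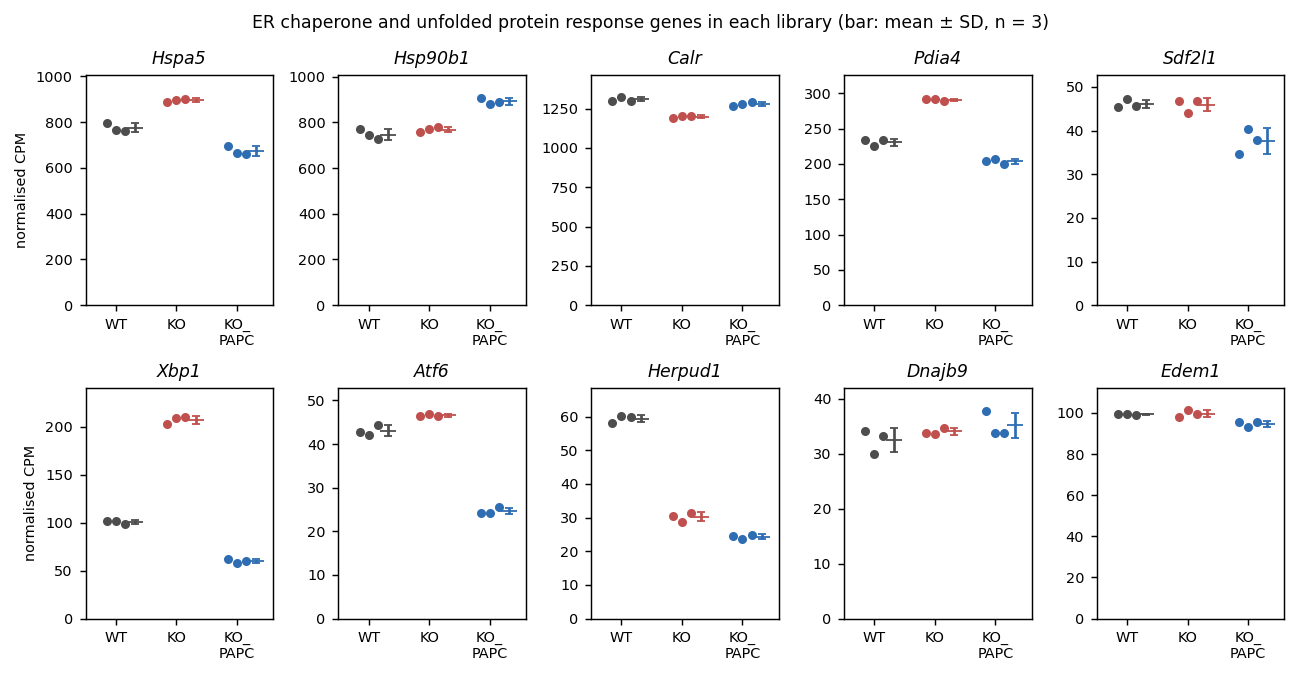
Normalised CPM (vertical axes, starting at 0) of the 10 genes in each of the 9 libraries, as points by group, with the mean and SD (n = 3) beside them. *Xbp1* is highest in KO and lowest in KO_PAPC EBs, *Atf6* is low in KO_PAPC EBs, and *Herpud1* is high in WT EBs. The groups of *Dnajb9* overlap, and *Edem1* lies within a narrow range.

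Per kilobase of exon, *Calr* was the most abundant of the 10 in WT EBs, at 455 ± 5.06 normalised CPM per kb (SD, n = 3). *Hsp90b1* (185 ± 5.77) and *Hspa5* (183 ± 4.60) came next and lay within each other's spread, though per kb of the longest transcript they were 232 and 211. They were followed by *Pdia4* (96.3), *Sdf2l1* (41.6), *Xbp1* (31.0), *Herpud1* (25.5), *Edem1* (15.4), *Dnajb9* (12.8) and *Atf6* (4.66). The order of the top pair parted in the other groups. *Hspa5* stood above *Hsp90b1* in KO EBs (212 ± 1.89 against 191 ± 2.28 per kb) and below it in KO_PAPC EBs (160 ± 4.81 against 221 ± 3.75 per kb). *Xbp1* stood above *Sdf2l1* in KO EBs (63.7 against 41.4 per kb) and below it in KO_PAPC EBs (18.4 against 33.9 per kb). In WT EBs their order depends on the length used, since per kb of the longest transcript *Xbp1* was at 47.2 and *Sdf2l1* at 41.6.

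*Xbp1* (ENSMUSG00000020484, chr11:5520659-5525893, + strand, GRCm38) encodes the transcription factor of the IRE1 branch and had the largest differences of the 10 under PA/PC. It measured 101.7, 101.4 and 98.6 normalised CPM in WT, 202, 209 and 210 in KO and 61.5, 57.5 and 59.95 in KO_PAPC EBs. No library of one group reached the range of another. The level in KO EBs was above WT by 1.04 on the log2 scale (SE 0.027, edgeR adjusted p = 1.09e-26). With PA/PC it fell by 1.80 (SE 0.033, edgeR adjusted p = 1.09e-33), which is 3.48-fold, and ended 0.76 below WT (log2 fold change -0.76, SE 0.037, edgeR adjusted p = 2.3e-15). The WT level thus lay between the KO level and the KO_PAPC level.

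*Atf6* (ENSMUSG00000026663, chr1:170704674-170867771, - strand) encodes the sensor that is itself cut into a transcription factor. Its levels were 42.8, 41.98 and 44.4 normalised CPM in WT, 46.3, 46.9 and 46.5 in KO and 24.3, 24.2 and 25.5 in KO_PAPC EBs. The 3 KO_PAPC libraries lay far below the other 6, while KO and WT libraries were close without overlapping. The log2 fold change was -0.92 (SE 0.045, edgeR adjusted p = 3.54e-20) against KO and -0.81 (SE 0.047, edgeR adjusted p = 8.18e-14) against WT EBs. The rise in KO over WT was 0.11 (SE 0.039, edgeR adjusted p = 0.00996), and DESeq2 did not call it (adjusted p = 0.0756), nor did edgeR without WT replicate 2 (adjusted p = 0.0619).

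The sensors IRE1 and PERK had the group order of *Xbp1*. *Ern1*, which encodes IRE1, measured 22.4, 23.1 and 23.6 normalised CPM in WT, 32.3, 31.8 and 32.2 in KO and 13.9, 14.9 and 13.9 in KO_PAPC EBs. *Eif2ak3*, which encodes PERK, measured 37.8, 39.8 and 39.3 in WT, 56.97, 58.5 and 56.8 in KO and 34.1, 32.8 and 34.1 in KO_PAPC EBs. Both were highest in all 3 KO libraries. *Ern1* rose by 0.48 in KO EBs and fell by 1.18 with PA/PC, and *Eif2ak3* rose by 0.56 and fell by 0.77 on the log2 scale, each with an edgeR adjusted p under 0.05. *Mbtps2*, the site-2 protease that cuts ATF6, had log2 fold changes of 0.28 and -0.49 in the same comparisons. Another annotated gene, *Yy2*, overlaps 28.4% of the exon length of *Mbtps2*. *Atf6b*, the relative of *Atf6*, and *Mbtps1*, the site-1 protease, went the other way, with -0.33 and 0.15 for *Atf6b* and -0.20 and 0.25 for *Mbtps1*. Of these 5 genes, 3 rose and 2 fell in KO EBs, 2 rose and 3 fell with PA/PC, and 0 were higher and 4 lower in KO_PAPC than in WT EBs.

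*Hspa5* (ENSMUSG00000026864, chr2:34771970-34777547, + strand) encodes BiP, the central ER chaperone, which holds the sensors inactive and is a common readout of ER stress. It measured 797.5, 765.6 and 762.2 normalised CPM in WT, 887.8, 897.6 and 903.7 in KO and 698.0, 663.7 and 662.0 in KO_PAPC EBs. The groups were separate, in the order KO, WT, KO_PAPC. *Hspa5* rose by 0.21 in KO EBs (SE 0.021, edgeR adjusted p = 6.45e-11) and fell by 0.41 with PA/PC (SE 0.024, edgeR adjusted p = 7.73e-18), a 1.33-fold difference. Against WT EBs its log2 fold change in KO_PAPC EBs was -0.21 (SE 0.028, edgeR adjusted p = 4.29e-07).

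*Pdia4* (ENSMUSG00000025823, chr6:47796141-47813430, - strand), a protein disulfide isomerase, had the same order of groups. It measured 234, 225 and 234 normalised CPM in WT, 292, 291 and 289 in KO and 204, 207 and 199.5 in KO_PAPC EBs. It rose by 0.33 in KO EBs (SE 0.024) and fell by 0.52 with PA/PC (SE 0.027, edgeR adjusted p = 1.5e-19), a 1.43-fold difference. *Sdf2l1* (ENSMUSG00000022769, chr16:17130138-17132383, - strand), a cofactor of BiP, differed only where PA/PC was present. Its levels were 45.5, 47.2 and 45.7 in WT, 46.8, 44.1 and 46.8 in KO and 34.6, 40.4 and 37.9 in KO_PAPC EBs. WT and KO libraries were interleaved, and all KO_PAPC libraries lay below them. The log2 fold change with PA/PC was -0.29 (SE 0.047, edgeR adjusted p = 7.98e-07). Between KO and WT EBs it was -0.0085, with an approximate 95% interval of -0.085 to 0.068.

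*Hsp90b1* and *Calr* did not share the fall. *Hsp90b1* (ENSMUSG00000020048, chr10:86690209-86705509, - strand) encodes GRP94, the HSP90 of the ER. It measured 771, 743 and 725 normalised CPM in WT, 759, 769 and 777 in KO and 908, 878 and 890.4 in KO_PAPC EBs. Every KO_PAPC library was above the other 6, while WT and KO libraries overlapped. It rose by 0.21 with PA/PC (SE 0.023, edgeR adjusted p = 1.97e-10) and was 0.25 above WT (SE 0.027, edgeR adjusted p = 1.31e-08). Scaled by library totals the rise over KO EBs was 0.045 and was no longer called (edgeR adjusted p = 0.073). Other annotated genes overlap 15.7% of its exon length, 9.63% of its 51-base words occur elsewhere, and the unstranded reads there cannot be assigned with certainty.

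*Calr* (ENSMUSG00000003814, chr8:84841850-84846934, - strand) encodes calreticulin, a calcium-binding chaperone of glycoproteins. It measured 1301, 1326 and 1301 normalised CPM in WT, 1189, 1203 and 1205 in KO and 1266, 1280 and 1290 in KO_PAPC EBs. It was lowest in the 3 KO libraries, with a log2 fold change of -0.13 (SE 0.018, edgeR adjusted p = 1.49e-07). With PA/PC it was 0.089 higher than in KO EBs (SE 0.022, edgeR adjusted p = 0.00035), but 0.078 lower when scaled by library totals (log2 fold change -0.078, edgeR adjusted p = 0.00141), so its direction rests on the scaling.

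*Dnajb9* (ENSMUSG00000014905, chr12:44205559-44210326, - strand) encodes ERdj4, a BiP cochaperone that also restrains IRE1. Its levels were 34.1, 30.0 and 33.3 normalised CPM in WT, 33.9, 33.6 and 34.7 in KO and 37.8, 33.9 and 33.9 in KO_PAPC EBs. The groups overlapped in all 3 comparisons. The log2 fold change was 0.066 in KO over WT (approximate 95% interval -0.026 to 0.16) and 0.043 with PA/PC (-0.051 to 0.14). With library totals the latter was -0.12 (edgeR adjusted p = 0.0184). Of its 51-base words, 5.38% occur in other genes as well.

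**Figure D2:**
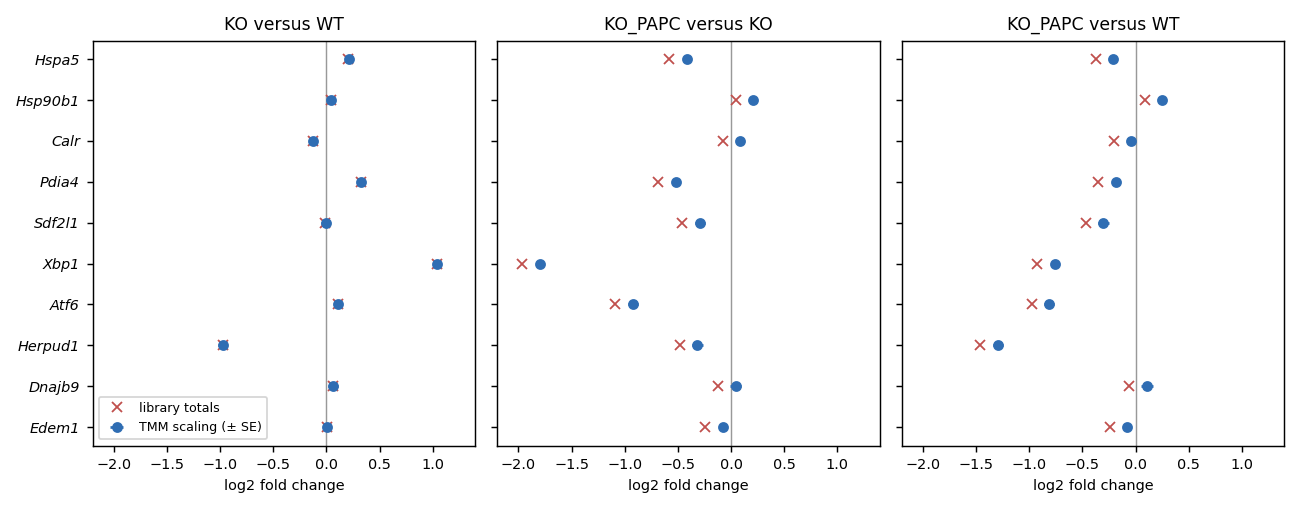
Log2 fold changes (horizontal axes) of the 10 genes in the 3 comparisons, with TMM scaling as points (± SE, mostly smaller than the point) and with library totals as crosses. Both scalings coincide for KO versus WT, and the crosses lie to the left by about the shift of the median of all genes in both comparisons with KO_PAPC, where *Calr* and *Dnajb9* cross 0 against KO.

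Because counts of 2 genes in the same library carry the same scaling, ratios within a library do not depend on it. The ratios were chosen after the levels had been seen and are given as a description. *Hsp90b1* counts were 0.967, 0.970 and 0.951 of *Hspa5* counts in WT, 0.855, 0.857 and 0.860 in KO and 1.30, 1.32 and 1.345 in KO_PAPC EBs. The ratio was thus lowest in KO and highest in KO_PAPC EBs, and rose 1.54-fold with PA/PC. The ratio of *Calr* to *Hspa5* was 1.69 ± 0.052 in WT, 1.34 ± 0.0038 in KO and 1.90 ± 0.073 in KO_PAPC EBs (SD, n = 3). *Pdia4* kept closer to *Hspa5*, at 0.298 ± 0.0075, 0.324 ± 0.0045 and 0.302 ± 0.0099. *Xbp1* ran from 0.130 ± 0.0025 in WT and 0.231 ± 0.0026 in KO to 0.0884 ± 0.0020 in KO_PAPC EBs. *Atf6* counts were 0.0556 ± 0.0024, 0.0520 ± 0.00048 and 0.0366 ± 0.0019 of those of *Hspa5*. An exact two-sided permutation test over 3 against 3 libraries cannot go below p = 0.1, and it gave p = 0.1 for all of these ratios between KO_PAPC and KO EBs.

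**Figure D3:**
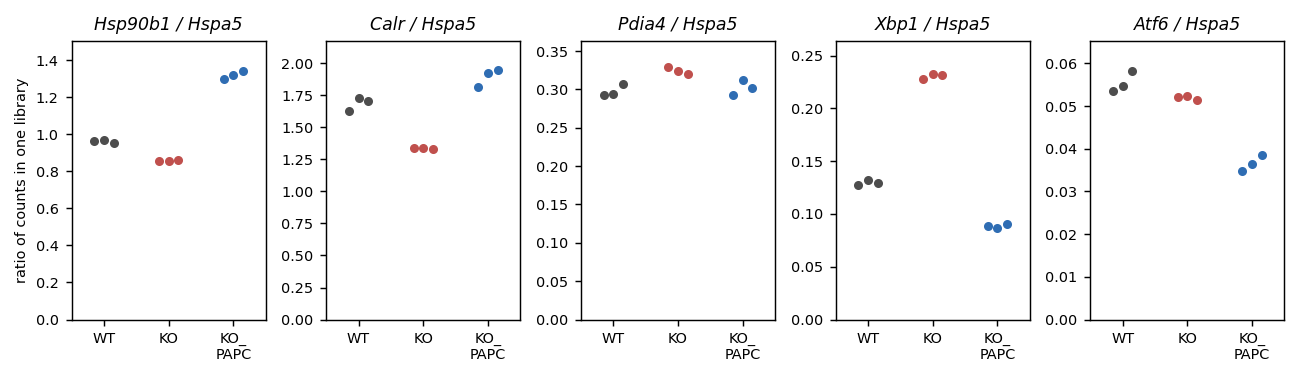
Counts of 5 genes divided by those of *Hspa5* in the same library (vertical axes, starting at 0), as 1 point for each of the 9 libraries. The KO_PAPC libraries are highest for *Hsp90b1* (1.30 to 1.345) and *Calr*, and lowest for *Xbp1* and *Atf6*.

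*Herpud1* (ENSMUSG00000031770, chr8:94386438-94395377, + strand) encodes a membrane protein of ER-associated degradation, the route by which misfolded proteins leave the ER for the proteasome, and it is a target of both ATF6 and ATF4. It measured 58.2, 60.2 and 59.9 normalised CPM in WT, 30.6, 28.8 and 31.3 in KO and 24.6, 23.6 and 24.8 in KO_PAPC EBs. It was the only one of the 10 whose level in KO EBs was near that in KO_PAPC EBs and far from WT. It fell by 0.98 in KO EBs (SE 0.040, edgeR adjusted p = 5.33e-21), a 1.97-fold difference, and by a further 0.32 with PA/PC (SE 0.051, edgeR adjusted p = 7.25e-07). Its level in KO_PAPC EBs was 2.45-fold below WT.

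*Edem1* (ENSMUSG00000030104, chr6:108828641-108859356, + strand) marks misfolded glycoproteins for degradation and is a classical target of XBP1. It measured 99.5, 99.7 and 99.2 normalised CPM in WT, 98.1, 101.6 and 99.4 in KO and 95.4, 93.2 and 95.6 in KO_PAPC EBs. WT and KO libraries overlapped, with a log2 fold change of 0.0018 (approximate 95% interval -0.056 to 0.059). With PA/PC it fell by 0.078 (SE 0.032, edgeR adjusted p = 0.0244), a call that was lost under DESeq2 (adjusted p = 0.119). Its group means spanned 94.7 to 99.7 normalised CPM, whereas those of *Xbp1* spanned 59.65 to 206.9.

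The wider machinery of the ER was taken from lists of known function. Of 13 other ER chaperones, 7 rose and 6 fell in KO EBs, and 4 rose and 8 fell with PA/PC (median log2 fold changes 0.10 and -0.11). *Uggt1*, the folding sensor of glycoproteins, rose by 0.53 in KO EBs and fell by 0.96 with PA/PC. *Creld2*, an ER stress-inducible chaperone, rose by 0.45 and fell by 0.91. It measured 96.1, 98.9 and 99.4 normalised CPM in WT, 138.6, 134.6 and 129.8 in KO and 67.9, 72.1 and 74.8 in KO_PAPC EBs, so its groups stood in the order of *Hspa5*. *Serpinh1*, the collagen chaperone, fell in both (-1.12 and -0.43), and *Sil1*, the exchange factor of BiP, fell in KO EBs (-0.85) and rose with PA/PC (0.48). Against WT EBs, 1 of the 13 was higher in KO_PAPC EBs and 10 were lower.

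Of 9 disulfide and proline enzymes, 4 rose and 5 fell in KO EBs. With PA/PC 6 rose and 3 fell (median 0.16), and this direction flipped with library totals, under which 3 rose and 4 fell (median -0.0075). The 2 ER oxidases parted. *Ero1l*, which is also known to respond to hypoxia, fell by 1.09 in KO EBs and was 0.95 higher with PA/PC, whereas *Ero1lb* rose by 0.70 and fell by 1.05. *Ero1l* measured 126.8, 117.2 and 123.1 normalised CPM in WT, 55.6, 57.3 and 59.3 in KO and 120.7, 105.8 and 108.0 in KO_PAPC EBs. The 10 hypoxia response genes all fell in KO EBs and all rose with PA/PC. *Stc1* (-4.66 and 5.85), *Ndufa4l2* (-3.85 in KO EBs) and *Adm* (5.40 with PA/PC) led them. Their summed level was 2250 to 2337 normalised CPM in WT, 1234 to 1270.0 in KO and 3937 to 4078 in KO_PAPC EBs. Most of this sum was *Slc2a1* (means of 1582, 884 and 2768). Against WT EBs, 7 of the 10 hypoxia genes were higher in KO_PAPC EBs and 2 were lower. The part of the hypoxia genes in the levels of ER genes was not tested.

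Of 13 other genes of ER-associated degradation, 6 rose and 4 fell in KO EBs and 4 rose and 8 fell with PA/PC (medians -0.039 and -0.23). *Edem2* and *Os9*, both readers or trimmers of glycans, fell by 1.14 and 0.82 with PA/PC. *Derl3* rose by 0.64 in KO EBs. Of 17 genes of ER entry and exit, 10 rose and 2 fell in KO EBs, and 3 rose and 9 fell with PA/PC (medians 0.26 and -0.22). *Sec11c*, a signal peptidase subunit, rose by 0.48 and fell by 1.08. *Sec31a* of the COPII coat rose by 0.42 in KO EBs, and *Sec24d* of the same coat fell by 0.95 with PA/PC. Compared with WT EBs, the median of the 17 genes was 0.0098 with TMM scaling and -0.16 with library totals.

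The genes of the PERK and CHOP branch had the lowest median of the ER lists in all 3 comparisons. Of 11, 1 rose and 8 fell in KO EBs (median -0.60), and 0 rose and 11 fell with PA/PC (median -1.82). All 11 were lower in KO_PAPC than in WT EBs (median -2.45). Among all genes, 37.1%, 42.2% and 36.4% were lower in these comparisons. With PA/PC the groups did not overlap for 10 of the 11 (82.2% of all genes). The exception was *Ppp1r15b*, with means of 191.9 in KO and 184.3 in KO_PAPC EBs. *Atf4*, the transcription factor of this branch, measured 440, 442 and 439 normalised CPM in WT, 290.4, 292 and 291 in KO and 61.1, 61.1 and 57.5 in KO_PAPC EBs. *Ddit3*, which encodes the pro-apoptotic factor CHOP, measured 41.2, 43.1 and 41.1 in WT, 18.5, 17.5 and 17.9 in KO and 14.7, 15.8 and 17.2 in KO_PAPC EBs. *Atf4* fell by 0.60 in KO EBs (SE 0.022, edgeR adjusted p = 1.28e-22) and by 2.28 with PA/PC (SE 0.031, edgeR adjusted p = 1.83e-37). *Ddit3* fell by 1.22 in KO EBs and by 0.18 with PA/PC (edgeR adjusted p = 0.00916). *Ddit3* shares its symbol with a second ID at 0 counts, and other annotated genes overlap 10.9% of its exon length.

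*Trib3*, a target of ATF4 and CHOP, measured 96.8, 98.3 and 98.4 normalised CPM in WT, 37.1, 37.7 and 35.1 in KO and 9.83, 10.5 and 10.95 in KO_PAPC EBs. *Chac1*, a glutathione-degrading enzyme of the same set, measured 47.4, 51.4 and 50.3 in WT, 18.8, 17.1 and 16.96 in KO and 4.39, 4.51 and 4.29 in KO_PAPC EBs. In both genes each step was separate from the next. *Nupr1* fell by 1.27 in KO EBs and by 2.31 with PA/PC. *Ppp1r15a*, the phosphatase subunit GADD34 that reverses PERK signalling, moved less, with -0.067 (edgeR adjusted p = 0.067) and -0.34. ATF4 also answers to amino acid supply and to other kinases, and these counts cannot tell those inputs from PERK.

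**Figure D4:**
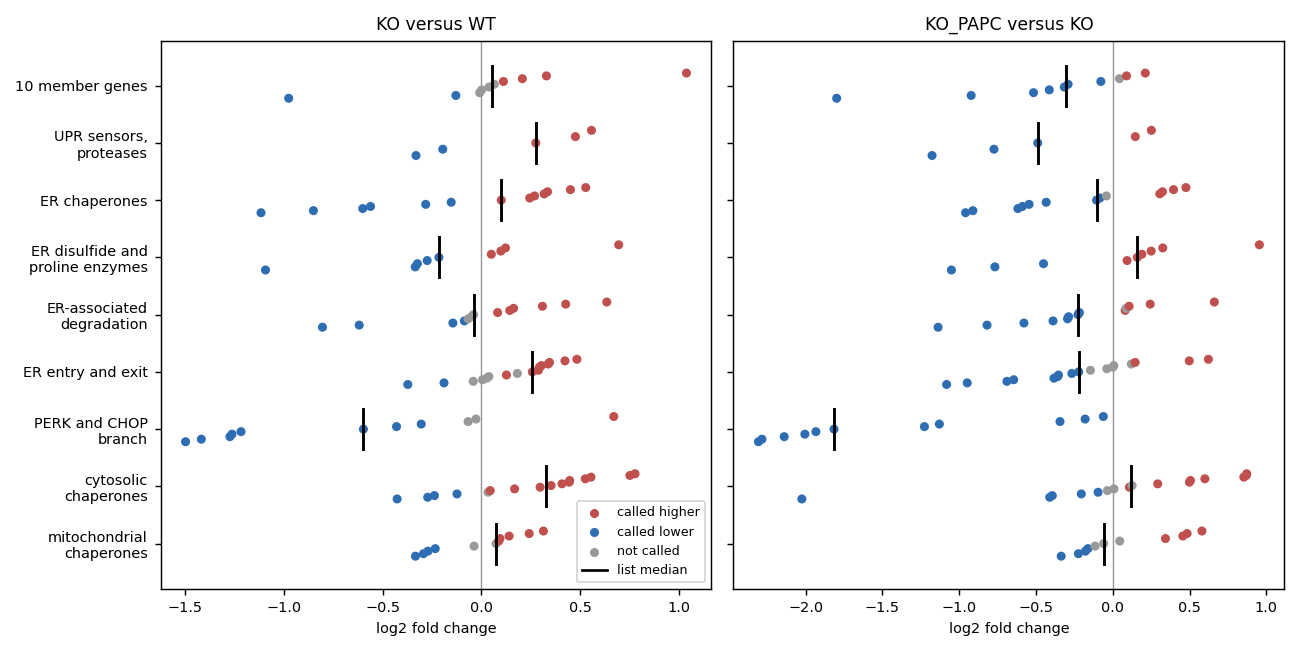
Log2 fold changes of each gene (points) in 9 lists of folding and ER stress genes for KO versus WT and KO_PAPC versus KO, coloured by the edgeR call, with the list median as a black bar. The PERK and CHOP list lies furthest to the left in both comparisons (medians -0.60 and -1.82), and the cytosolic list has a median of 0.33 and 0.12.

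Chaperones outside the ER were read as a comparison. Of 16 cytosolic chaperones, 11 rose and 4 fell in KO EBs (median 0.33). With PA/PC 8 rose and 5 fell (median 0.12), which became 7 and 7 with a median of -0.050 under library totals. *Hsp90ab1*, the constitutive cytosolic HSP90, was 0.87 higher with PA/PC and *Hspb1* fell by 2.03. *Hsp90aa1* rose by 0.56 in KO EBs, as did *Hspa1b* by 0.78, though the latter has a near-identical neighbour in *Hspa1a*. Of 11 mitochondrial chaperones and proteases, 5 rose and 4 fell in KO EBs and 4 rose and 4 fell with PA/PC (medians 0.074 and -0.060). *Hspe1* and *Lonp1* were higher with PA/PC by 0.58 and 0.48, *Clpp* fell by 0.33 and *Grpel1* rose by 0.31 in KO EBs.

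Returning to the promoters, the ER lists and the 10 genes together held 78 genes, 67 of them with a window, and 10 of these 67 carried the ERSE (14.9%, against 0.137% of all genes). The lists name known ER stress targets, so this share is not independent of how they were made. Of the 10 genes with the element, 7 rose and 1 fell in KO EBs (median 0.15) and 3 rose and 7 fell with PA/PC (median -0.25). The 3 that rose with PA/PC were *Hsp90b1*, *Pdia6* and *Calr*, and with library totals 0 rose and 8 fell. *Ero1lb* fell most, by 1.05, and *Creld2* next, by 0.91, while *Canx* fell by 0.084. The elements of *Hspa5* and of *Hsp90b1*, printed above, share all fixed letters because the search required them. Near matches were not counted. The 2 genes went apart in every KO_PAPC library, and the part of the element in this was not tested. *Herpud1* and *Dnajb11*, the 2 with an ERSE-II, fell by 0.32 and 0.62 with PA/PC, but *Herpud1* also fell in KO EBs, where *Dnajb11* rose by 0.24.

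**Figure D5:**
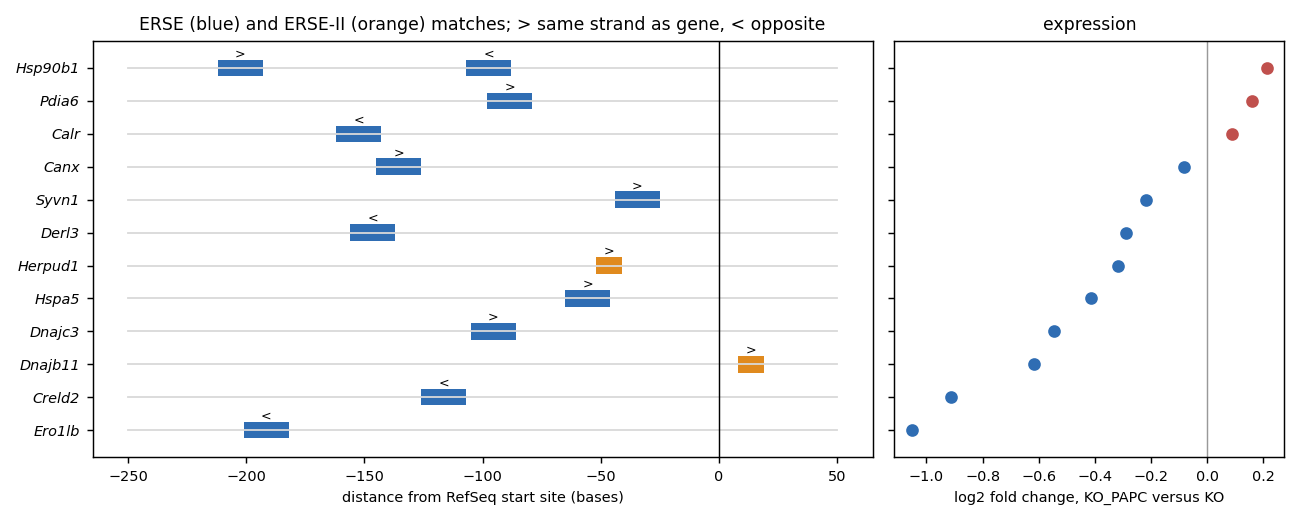
Positions of ERSE (blue) and ERSE-II (orange) matches in the promoters of 12 ER genes, as distance in bases from the RefSeq start site, beside each gene's log2 fold change in KO_PAPC versus KO. Genes are ordered by that change, from *Ero1lb* (-1.05) to *Hsp90b1* (0.21), and matches of either strand occur at both ends of the order.

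Over the whole genome, 34 genes of the count table carried the ERSE, and 21 were tested with PA/PC. These include the 10 ER genes above, so the 2 counts are not separate. Of the 21, 5 rose and 15 fell, where 39.6% of all genes rose and 42.2% fell. Their median was -0.41, against -0.017 for all genes. Those named by size were *Calr4*, a relative of *Calr*, at 0.938 normalised CPM for WT, 2.46 for KO and 0.170 for KO_PAPC EBs, and *Xlr3a*, of a multigene family, at 2.02, 4.35 and 0.0259. *Gm32885* carried the ERSE-II and measured 3.98, 21.4 and 0.716. The UPR element was held by 163 genes, of which 53 rose and 52 fell of 128 tested (median 0.027). *Spesp1* (1.13, 6.58 and 0.208 normalised CPM) and *Ptpn7* (1.09, 4.78 and 0.312) had the largest called changes among those with a mean of at least 1 CPM.

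Genes of the lists and genes with a promoter match were left out when the genes most like *Hspa5* were sought. Among the rest, the closest in pattern over the 9 libraries were *Zc3hav1l* (Pearson r = 0.9969), *Tmem64* (0.9967), *Snap29* (0.9964), *Zwint* (0.9963) and *Mob1a* (0.9963). Since the 9 libraries form 3 tight groups, r mostly repeats the order of the group means, and 1385 of 15880 genes had an r above 0.95. Nearly as high a value was seen for *Xbp1* (0.988) and *Pdia4* (0.975) among the 10, while *Hsp90b1* (-0.712) and *Calr* (-0.707) were negative.

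The levels of cell type markers differed between the groups as well. The 17 endoderm markers summed to 2531 to 2667 normalised CPM in WT, 1461 to 1474 in KO and 540 to 551 in KO_PAPC EBs, sums carried mostly by matrix genes such as *Sparc* and *Col4a1*. In KO EBs 14 of 17 fell and 3 rose. Those that rose were *Afp* (means of 4.56 in WT and 10.6 in KO EBs), *Ttr* (8.88 and 12.6) and *Hnf4a* (8.11 and 9.73). Those that fell included *Cubn*, *Amn* (25.5 and 11.3), *Dab2* (111.7 and 83.2) and *Foxa2* (6.59 and 3.89). The 3 that rose thus do not stand for the endoderm list as a whole. All 17 fell with PA/PC. The 10 pluripotency markers summed to 2777 to 2808 in WT, 4301 to 4335 in KO and 3115 to 3153 in KO_PAPC EBs. Of these, 8 rose and 1 fell in KO EBs, 2 rose and 8 fell with PA/PC, and 4 were higher and 6 lower in KO_PAPC than in WT EBs (median -0.24), where *Pou5f1* (657 and 912) and *Tdgf1* (366 and 702) carried the higher sum. The 8 ectoderm markers summed to 377 to 384, 254 to 260 and 616 to 627, and all 8 rose with PA/PC. The 8 mesoderm markers summed to 39.5 to 43.0, 34.4 to 35.9 and 54.3 to 57.2, with 4 higher and 2 lower of 6 tested with PA/PC. The 8 fibroblast markers summed to 41.7 to 43.4, 28.96 to 29.1 and 14.6 to 16.02, a fall that came from *Pdgfra* (34.0, 12.8 and 2.53), while 4 of the 5 tested were higher in KO_PAPC than in WT EBs. No marker was at 0 in all libraries. The part of cell composition in the levels of the 10 genes was not tested.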

How the data were processed

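RNA sequencing of 9 libraries was used, 3 groups of 3. The authors deposited read counts per Ensembl gene, whole numbers that were not normalised. Per the labels, reads of unstranded TruSeq libraries (51 cycles, single end) were demultiplexed with bcl2fastq 2.20.0.422. They were mapped to GRCm38 with STAR 2.7.2b and counted with featureCounts 1.6.5. The study's methods describe TopHat2 for its comparison of KO with WT EBs. Symbols came from GENCODE M21 (241 IDs without a match), promoters from RefSeq. The number of sample columns left unused was 0. Samples were grouped by title.

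Comparisons were fitted separately, on 6 libraries each, by quasi-likelihood in edgeR 4.0.16 (R 4.3.3), with TMM factors and filterByExpr. Genes were called at a Benjamini-Hochberg adjusted p under 0.05. For KO versus WT the fits were also run on simulated data with 200 changed genes. Far fewer genes changed there than were called here, so the scaling between groups was not put to a test. SEs come from the F statistic. Replicate pairs correlated at 0.9992 to 0.9993 (log2 CPM) and differed by more than sampling noise (chi-square per degree of freedom 1.22 to 3.45). The 10 genes had 596 to 38467 counts per library. Alternatives were RLE factors, library totals, DESeq2 1.42.0, no filter, all 9 libraries in a joint fit, a replicate block, a tested fold of 1.5 and leaving out each replicate. The 10 genes, the lists and the tests were chosen with earlier results of these data known. Besides the 10, the genes named were the sensors, 5 fixed PERK targets and 5 genes outside the lists most like *Hspa5*. Added were up to 2 genes per list and comparison, those with the largest called change at a mean of at least 1 CPM. Further genes were named after their values were seen. A gene that this rule names is not reported here.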

Additional observations from a re-analysis of the deposited data

How the results depend on the processing

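Of 390 alternative values for the fold changes of the 10 genes, 349 kept their side of the threshold, 33 lost the call, 6 gained it and 2 were called with the opposite sign. Among the 349, 10 changed sign without a call, all for *Edem1* and *Sdf2l1* in KO versus WT and for *Dnajb9* in the comparisons with KO_PAPC. Both calls of opposite sign came from library totals in KO_PAPC versus KO: *Calr* at -0.078 and *Dnajb9* at -0.12. Library totals gave 0 genes of the 10 higher there, with medians of -0.47 against KO and -0.36 against WT, while all genes split into 5317 higher and 8684 lower (TMM 6801 and 7246) and into 3616 higher and 8341 lower against WT (TMM 5693 and 6067). Against a tested fold of 1.5, 3637 genes were called for the knockout, 6491 for PA/PC within it and 2953 for KO_PAPC against WT, with 1 higher and 1 lower, 0 and 2, and 0 and 3 of the 10. The joint fit gave 2 of the 10 higher in KO_PAPC versus WT, adding *Dnajb9*.

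Same-numbered libraries were not treated as pairs. Their deviations correlated between -0.153 and 0.235, and at 0.235, 0.151 and 0.00313 for replicates 1, 2 and 3 in KO_PAPC versus WT. These values do not settle whether same-numbered libraries shared a batch. A fit with a replicate block gave 2 of the 10 higher in KO_PAPC versus WT (*Dnajb9* added, adjusted p = 0.0221), called *Calr* lower there (0.00706), and lost *Edem1* in KO_PAPC versus KO (0.056); it called 12587, 13822 and 12223 genes.

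Leaving out 1 library gave, for KO versus WT, 3 to 5 of the 10 higher, 2 lower, a median of 0.020 to 0.079 and 12382 to 12820 genes called. For KO_PAPC versus KO it gave 2 higher, 6 to 7 lower, a median of -0.34 to -0.27 and 13785 to 14137 genes; for KO_PAPC versus WT 1 to 2 higher, 6 to 7 lower, a median of -0.21 to -0.18 and 11208 to 11654 genes. Without WT replicate 1 *Hsp90b1* was called higher in KO EBs (edgeR adjusted p = 0.00379) and *Dnajb9* in KO_PAPC versus WT (0.0305). *Edem1* lost its call in KO_PAPC versus KO without KO replicate 2 and without KO_PAPC replicates 2 or 3, and in KO_PAPC versus WT without any 1 WT library or KO_PAPC replicates 2 or 3. DESeq2 and the fit without a filter lost it in both, and RLE factors against WT. The causes were not tested.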
